A study of Bos taurus with 15 samples.

Results

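GJB5, JUP and PKP2 encode proteins of 2 kinds of cell-cell junction, and they were followed from the bovine oocyte to the blastocyst. The members were every probe set that the array platform's annotation assigns to one of these 3 gene symbols. They were 4 probe sets, 1 for GJB5 (Bt.17182.1.S1_at), 1 for JUP (Bt.20230.1.S1_at) and 2 for PKP2 (Bt.21547.1.A1_at and Bt.21547.2.S1_at, called the A1 and S1 probe sets here), of 24128 on the array, and 3 of 9155 named genes. All probe sets of the 3 genes were taken, whatever their values, but the genes themselves were chosen with earlier results of these data known.

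Oocytes and embryos were harvested at successive stages, and their amplified RNA was hybridised to 15 Affymetrix bovine arrays, 1 sample to an array. The stages were the oocyte (3 arrays), the 1-cell embryo (2 arrays), the 2-cell, 4-cell, 8-cell and 16-cell embryo (1 array each), the morula (3 arrays) and the blastocyst (3 arrays). Oocytes came from aspirated ovarian follicles, were matured and fertilised in vitro, and the embryos were cultured after vortexing to remove their cumulus cells. No treatment or genotype separates the groups, and the labels do not say whether the arrays called oocyte hold oocytes from before or after maturation. Replicates are called biological in the labels, which do not give the number of embryos in a sample or whether the samples came from separate collections, so p-values here measure only how far these arrays differ from one another. The 4 stages with a single array have no replicate check and entered no test.

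Gap junctions are clusters of channels that let ions and small molecules pass between neighbouring cells, and each channel is built of connexins. Desmosomes are adhesive plaques that tie the keratin filaments of epithelial cells together: cadherins of the desmocollin and desmoglein families span the membrane, and armadillo proteins such as plakoglobin and the plakophilins link them to desmoplakin and to the filaments. In mammalian embryos the outer cells become polarised around compaction and form the trophectoderm, the first epithelium, whose cells are joined by both kinds of junction. GJB5 is a beta connexin that in the mouse is known from trophoblast and skin. JUP is plakoglobin, which binds both desmosomal and classical cadherins, and PKP2 is a plakophilin found in the desmosomes of simple epithelia and of the heart.

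The deposited value of a probe set, called signal here, is an intensity on a linear scale with no unit. Array medians lay between 39.7 and 61.7 and array means between 557.6 and 716.7. Signals of different probe sets are not comparable as levels, because each set of probes binds with its own strength. A signal is a share of the amplified RNA, so fewer cells of a type and less RNA per cell cannot be told apart. A poly(A) spike-in transcript gave signal on 9 arrays (oocyte 2 and 3, 1-cell 2, each of the 4 single arrays, morula 3 and blastocyst 3) and was near background on the other 6. Arrays numbered 3 stood apart from arrays 1 and 2 of their stage: 1979 to 3065 probe sets differed by 4-fold or more within such a pair. Between arrays 1 and 2 the number was 47 in morula, 320 in oocytes, 352 in blastocysts and 987 in 1-cell embryos. Results are given without the arrays numbered 3 below. Of 8 measured genes on a list of oocyte markers, 8 were lower in morula (100%, against 8.63% of all named genes). Their summed signal was 1008 to 1376 in morula, against 30012 to 53125 in oocytes. Of 8 measured trophectoderm markers, 4 were higher in morula (50%, against 17.7% of all named genes). The other 4, KRT8, TFAP2A, IFNT2 and ELF5, did not pass the test described below. The summed signal of the 8 was 8089 to 15222 in morula, against 183 to 249 in oocytes. The oocyte list and the summed trophectoderm signal thus followed the stage labels.

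GJB5 had the widest span of the 4 probe sets, with a low signal up to the 16-cell array and a high one in every morula. Its signal was 49.4, 41.3 and 101 on the 3 oocyte arrays and 122 and 68.5 on the 2 arrays of 1-cell embryos. It was 94.1 on the 2-cell, 410 on the 4-cell, 176 on the 8-cell and 28.8 on the 16-cell array. In morula it was 6645, 6980 and 6869, and in blastocysts 2488, 1142 and 4909. The morula arrays were the 3 highest of all 15, the blastocyst arrays the next 3, and the lowest morula array was 16.2 times the highest of the 9 earlier arrays, the 4-cell one.

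JUP also reached its higher signals in morula and blastocyst, and unlike GJB5 its mean was highest in blastocysts. Its signal was 16.9, 23.3 and 34.4 on oocyte arrays and 23.4 and 47.3 on arrays of 1-cell embryos. On the single arrays it was 83.5 at the 2-cell, 3.35 at the 4-cell, 60.8 at the 8-cell and 39.7 at the 16-cell stage. In morula it was 293, 228 and 169, and in blastocysts 441, 329 and 811. Every blastocyst array lay above every morula array, and every morula array above the 9 earlier ones, with the lowest morula array at 2.02 times the 2-cell array, the highest of the earlier ones. The 4-cell array, where JUP was lowest, was the one of the 9 earlier arrays where GJB5 was highest. No call of detection was used here, so it cannot be said whether JUP was above background on the arrays before the morula.

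PKP2, read by its A1 probe set, was also highest in morula and blastocyst, with intermediate signals on the 3 arrays before them. Its signal was 422, 266 and 66.5 on oocyte arrays and 242 and 804 on arrays of 1-cell embryos. It was 258 on the 2-cell, 1209 on the 4-cell, 1726 on the 8-cell and 904 on the 16-cell array. In morula it was 4029, 2346 and 4303, and in blastocysts 5636, 4881 and 2519. The 4-cell, 8-cell and 16-cell arrays lay above every oocyte and 1-cell array and below every morula array, though the margin was narrow, since the lowest morula array was 1.36 times the 8-cell array. Morula and blastocyst arrays overlapped.

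The S1 probe set of PKP2 did not share this course. Its signal was 105, 89.5 and 77.1 on oocyte arrays, 63.0 and 125 on arrays of 1-cell embryos, and 127, 89.7, 66.1 and 61.7 on the 2-cell, 4-cell, 8-cell and 16-cell arrays. It was 53.3, 47.5 and 42.0 in morula and 73.7, 55.6 and 61.2 in blastocysts. The morula arrays were its 3 lowest, and the blastocyst array at 55.6 lay close above them. Across the 8 stage means the Pearson correlation between the PKP2 probe sets was -0.81, given as a description of points that share arrays. Which part or strand of the PKP2 transcript each probe set reads is not given in the sources used here, so PKP2 is followed below by (A1) or (S1) for the probe set.

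**Figure D1:**
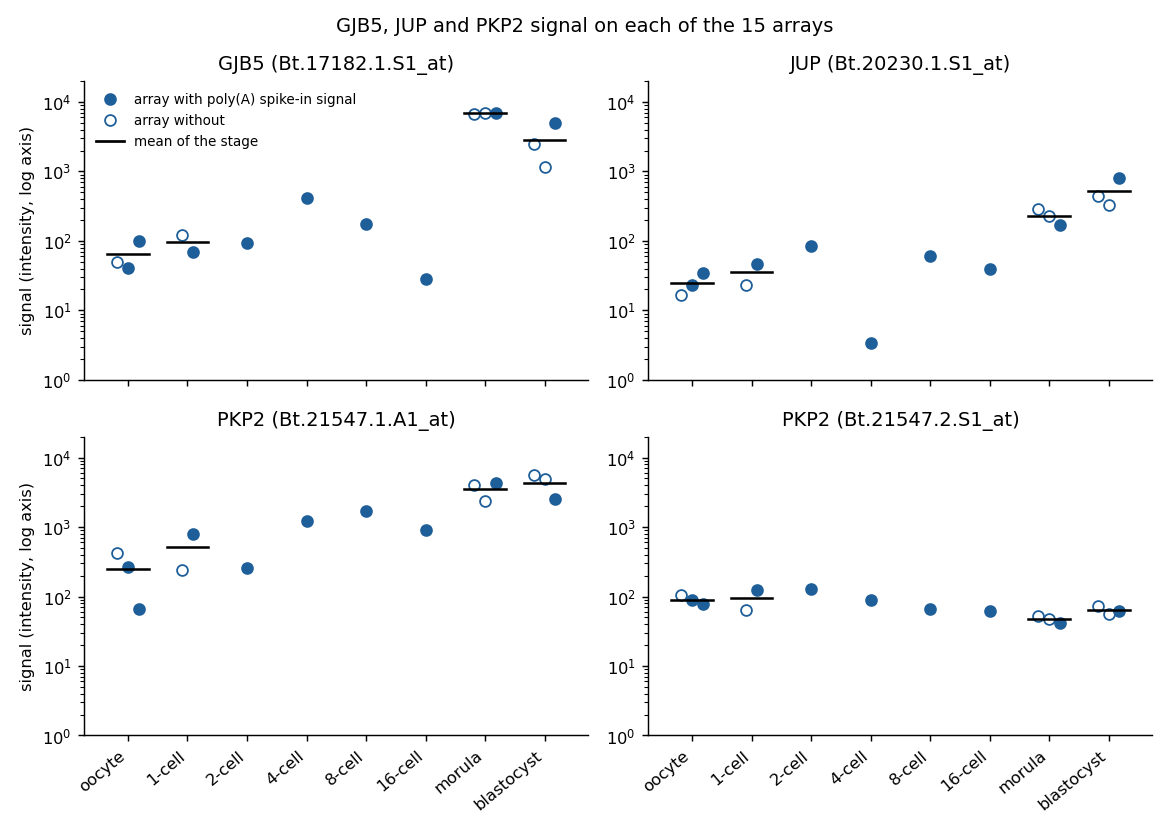
Signal (deposited intensity, log axis) of each GJB5, JUP and PKP2 probe set on each of the 15 arrays, by stage from oocyte to blastocyst. Filled points are the 9 arrays with poly(A) spike-in signal, open points the 6 without, and bars are stage means where a stage has more than 1 array. GJB5 sits between 6645 and 6980 in morula, above all other arrays, while PKP2 (S1) stays between 42.0 and 127 throughout.

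Put in order of its stage means, GJB5 was lowest on the 16-cell array (28.8), followed by oocyte (64.03 ± 32.6, SD, n = 3), 2-cell (94.1), 1-cell (95.4 ± 38.01, SD, n = 2), 8-cell (176), 4-cell (410), blastocyst (2846 ± 1909, SD, n = 3) and morula (6831 ± 170.3, SD, n = 3). The 2-cell array lay inside the range of the oocyte arrays and of the 1-cell arrays, so these neighbours cannot be ordered. The replicate arrays of morula were close together for GJB5, while those of blastocyst spread over 4-fold. For JUP the order was 4-cell (3.35), oocyte (24.8 ± 8.85, SD, n = 3), 1-cell (35.3 ± 16.9, SD, n = 2), 16-cell (39.7), 8-cell (60.8), 2-cell (83.5), morula (230 ± 61.9, SD, n = 3) and blastocyst (527 ± 252, SD, n = 3). The oocyte and 1-cell arrays overlapped. The single 16-cell array lay inside the range of the 1-cell arrays, though above every oocyte array. For PKP2 (A1) the order was oocyte (252 ± 178, SD, n = 3), 2-cell (258), 1-cell (523 ± 397, SD, n = 2), 16-cell (904), 4-cell (1209), 8-cell (1726), morula (3559 ± 1060, SD, n = 3) and blastocyst (4346 ± 1626, SD, n = 3). Neither its first 3 stages nor its last 2 were apart from each other by more than the spread of their arrays.

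The comparison of morula with oocyte asks which transcripts differ across the cleavage divisions. GJB5, JUP and PKP2 (A1) rose, and PKP2 (S1) did not pass the test. Changes are differences of log2(signal + 16), which understate the change of low signals, tested with limma over all 24016 probe sets that are not controls, with Benjamini-Hochberg adjustment at 0.05. GJB5 averaged 6831 ± 170.3 in morula and 64.03 ± 32.6 in oocytes (SD, n = 3 each), with a fitted log2 difference of 6.49 (SE 0.55, limma adjusted p = 5.94e-05). JUP averaged 230 ± 61.9 in morula and 24.8 ± 8.85 in oocytes (SD, n = 3 each), with a fitted log2 difference of 2.58 (SE 0.41, limma adjusted p = 0.00185). PKP2 (A1) averaged 3559 ± 1060 in morula and 252 ± 178 in oocytes (SD, n = 3 each), with a fitted log2 difference of 3.99 (SE 0.68, limma adjusted p = 0.00268). In each of the 3, all morula arrays lay above all oocyte arrays. The share of all probe sets whose arrays do not overlap was not counted, so non-overlap here and below only describes these arrays. Of all probe sets tested, 11.8% passed as higher in morula and 7.16% as lower, and 3 of the 4 member probe sets were among the higher ones.

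PKP2 (S1) averaged 47.6 ± 5.65 in morula and 90.5 ± 14.0 in oocytes (SD, n = 3 each), and its arrays did not overlap. The log2 change was -0.74 (SE 0.31, limma adjusted p = 0.130). After quantile normalization the change was -1.02 and just passed (limma adjusted p = 0.0496). The 2 PKP2 probe sets therefore gave values of opposite sign, of which 1 passed the test.

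Within arrays of like spike-in signal, the changes in morula kept their sign. GJB5 differed by 6.39 on the log2 scale among arrays with spike-in signal and by 6.71 among those without. For JUP these values were 2.06 and 3.06, and for PKP2 (A1) they were 4.82 and 2.82. Without the arrays numbered 3, GJB5 changed by 6.80, JUP by 2.93 and PKP2 (A1) by 3.14 in morula, with limma adjusted p of at most 0.00662. One of the compared stages has a single array in each of the spike-in splits, so they have no test. Scaling of the arrays moved the balance of all calls: 62.2% of the 4550 calls were higher in morula on the deposited scale, against 51.4% after quantile normalization and 52.5% with arrays centred on their medians, where the median of all probe sets shifted to -0.14. The 3 rises passed the test under both of these scalings, and the part of scaling in their size was not tested.

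Blastocysts against oocytes gave the same 3 members as higher. This comparison shares its oocyte arrays with the one above, so it is given side by side and not as a repeat. GJB5 averaged 2846 ± 1909 in blastocysts and 64.03 ± 32.6 in oocytes (SD, n = 3 each), with a log2 change of 5.00 (SE 0.55, limma adjusted p = 2.34e-04). JUP averaged 527 ± 252 in blastocysts and 24.8 ± 8.85 in oocytes (SD, n = 3 each), with a log2 change of 3.66 (SE 0.41, limma adjusted p = 2.79e-04). PKP2 (A1) averaged 4346 ± 1626 in blastocysts and 252 ± 178 in oocytes (SD, n = 3 each), with a log2 change of 4.25 (SE 0.68, limma adjusted p = 0.00195). The blastocyst and oocyte arrays did not overlap for any of them. PKP2 (S1) averaged 63.5 ± 9.29 in blastocysts and 90.5 ± 14.0 in oocytes (SD, n = 3 each), with a log2 change of -0.42 (SE 0.31, limma adjusted p = 0.403). Over all probe sets 11.9% passed as higher in blastocysts and 7.36% as lower. Here 61.8% of calls were higher on the deposited scale, against 51.8% after quantile normalization and 52.7% with centred arrays. The changes of the 3 called members lay between 3.59 and 5.91 within arrays of like spike-in signal, and without the arrays numbered 3 they were 4.80 for GJB5, 3.47 for JUP and 3.90 for PKP2 (A1), with limma adjusted p of at most 0.00291.

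**Figure D2:**
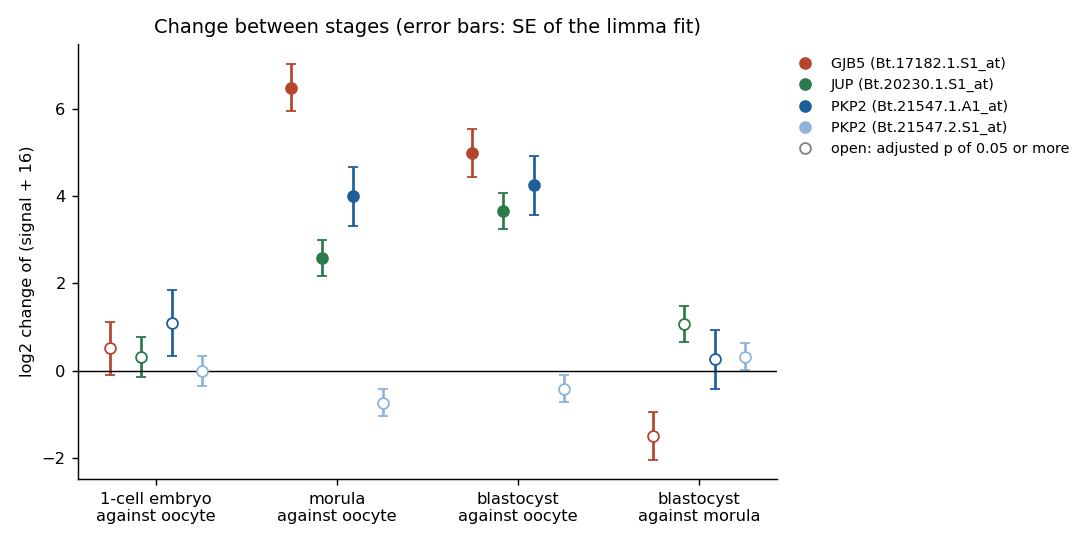
Log2 change of (signal + 16) with its SE from the limma fit, for the 4 probe sets in each of 4 comparisons between stages, each written as the later stage against the earlier. Filled points passed an adjusted p of 0.05: GJB5, JUP and PKP2 (A1) in morula and in blastocyst against oocyte, with changes between 2.58 and 6.49, and no point in the other comparisons.

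Between morula and blastocyst, GJB5 and JUP had values of opposite sign, and no member passed the test over all probe sets. GJB5 averaged 2846 ± 1909 in blastocysts and 6831 ± 170.3 in morula (SD, n = 3 each), and its fitted log2 change was -1.50 (SE 0.55). Its limma p was 0.0209, and 0.50 after adjustment. JUP averaged 527 ± 252 in blastocysts and 230 ± 61.9 in morula (SD, n = 3 each), and its fitted log2 change was 1.08 (SE 0.41). Its limma p was 0.0265, and 0.539 after adjustment. In both genes the blastocyst arrays did not overlap with the morula arrays, which also held for PKP2 (S1). The share of all probe sets without overlap was not counted, so this describes the arrays and is no support for a change. PKP2 (A1) averaged 4346 ± 1626 in blastocysts and 3559 ± 1060 in morula, overlapping, with a log2 change of 0.26 (SE 0.68, limma adjusted p = 1). PKP2 (S1) averaged 63.5 ± 9.29 in blastocysts and 47.6 ± 5.65 in morula, not overlapping, with a log2 change of 0.32 (SE 0.31, limma adjusted p = 0.926). Few probe sets passed in this comparison at all: 0.121% as higher in blastocysts and 0.0458% as lower, which is 40 of 24016, with 1859 at an unadjusted p under 0.05.

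The opposite values of GJB5 and JUP can also be read within each array, as a log2 ratio of the signals with nothing added, in which a factor that scales a whole array cancels. The log2 ratio of GJB5 over JUP was 2.49, 1.80 and 2.60 on the blastocyst arrays and 4.505, 4.93 and 5.35 on the morula arrays. It was 1.55, 0.83 and 1.56 on the oocyte arrays. The size of this ratio has no meaning of its own, since the probes differ, but its change shows that the 2 signals did not change in proportion between morula and blastocyst arrays. No test was run on it. Among arrays with spike-in signal, 1 of each stage, the log2 change in blastocyst against morula was -0.48 for GJB5, 2.16 for JUP and -0.77 for PKP2 (A1). Among arrays without, 2 of each stage, these changes were -2.003, 0.53 and 0.77, which are also the values without the arrays numbered 3. The size of each, and the sign for PKP2, therefore differed between the splits.

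No member passed the test in 1-cell embryos against oocytes. The log2 changes were 0.51 for GJB5 (SE 0.61), 0.31 for JUP (SE 0.46), 1.09 for PKP2 (A1) (SE 0.76) and -0.00 for the other PKP2 probe set (SE 0.34), with limma adjusted p between 0.929 and 1. Their arrays overlapped in every case. Over all probe sets 0.233% passed as higher in 1-cell embryos and 0.0375% as lower. With 2 arrays of 1-cell embryos and SEs of this size, changes of about 1 on the log2 scale could not be told from the spread.

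The wider families show where the members stand. Each gene is represented by its probe set with the highest mean signal, and the lists were written with earlier results of these data known. Of 24 listed connexins and pannexins, 8 were measured. In morula against oocyte, GJB5 was the 1 that rose and GJC1, a gamma connexin known from heart and vessels, was the 1 that fell, while 6 did not pass. That is 12.5% in each direction, near the shares over all named genes, of which 17.7% rose and 8.63% fell. GJC1 had signals of 32.8, 27.4 and 11.9 in morula, against 1536, 1949 and 3264 in oocytes, a log2 change of -5.79 (SE 0.47, limma adjusted p = 5.29e-05). On the single arrays from 2-cell to 16-cell GJC1 was 4933, 4110, 4772 and 1659, so it was still high on the 16-cell array where GJB5 was at its lowest. In blastocysts GJC1 was 31.5, 18.0 and 12.9, a log2 change of -5.90 against oocytes (SE 0.47, limma adjusted p = 4.57e-05), and GJB5 was again the 1 connexin that rose (12.5%, against 17.8% of all named genes, of which 8.95% fell). The median change over the 8 genes was -0.06 in morula and -0.44 in blastocysts, against 0.14 and 0.10 over all 9155 named genes.

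Of 16 listed desmosome genes, 10 were measured. In morula against oocyte 2 rose, JUP and PKP2, and none fell. The median change was 0.26, against 0.14 over all named genes, of which 17.7% rose and 8.63% fell. In blastocysts against oocytes 4 rose and none fell, with a median of 0.43, against a median of 0.10 over all named genes, of which 17.8% rose and 8.95% fell. The 4 were JUP, PKP2, DSC2, a desmosomal cadherin, and PERP, a membrane protein that desmosomes of stratified epithelia need in the mouse. DSC2 had signals of 1444, 4151 and 1182 in blastocysts, against 67.2, 9.58 and 21.1 in oocytes, a log2 change of 5.50 (SE 0.87, limma adjusted p = 0.00185). PERP had signals of 7584, 7194 and 4260 in blastocysts, against 1657, 530 and 83.7 in oocytes, a log2 change of 3.78 (SE 0.87, limma adjusted p = 0.0129, and 0.0515 with the compared stages fitted alone). On the single 8-cell and 16-cell arrays DSC2 was 77.2 and 840, the latter above every morula array. In morula DSC2 was 235, 34.5 and 4.29 and did not pass against oocytes (log2 change 0.57, limma adjusted p = 0.712). The cadherin partner and the armadillo proteins JUP and PKP2 thus differed in whether they passed in morula. A difference between them was not tested.

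For DSC2, picked out here after its values were seen, the log2 change in blastocyst against morula was 4.93 (SE 0.87, limma adjusted p = 0.0774). It passed in 4 of 18 alternatives, among them with morula 1 left out, with limma adjusted p between 0.0294 and 0.478 over the 18. None of the 10 desmosome genes, and none of the 8 connexins and pannexins, passed in blastocyst against morula or in 1-cell embryo against oocyte. Of all named genes, 15 passed as higher and 7 as lower in blastocyst against morula. The plakophilins PKP1, PKP3 and PKP4, named here as relatives of PKP2, did not pass in any comparison.

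**Figure D3:**
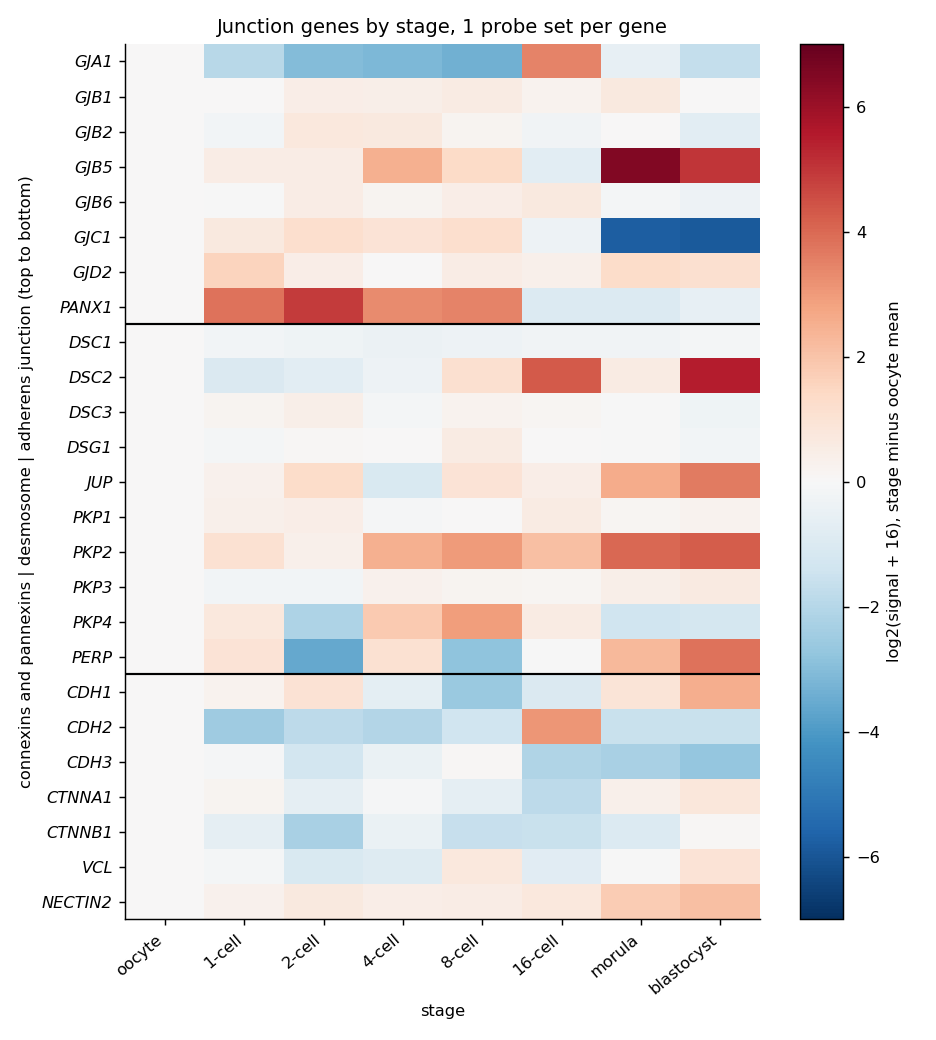
Stage means of log2(signal + 16) minus the oocyte mean, for 8 connexins and pannexins, 10 desmosome genes and 7 adherens junction genes (rows), at the 8 stages (columns, earliest at left). Columns from 2-cell to 16-cell are single arrays. GJB5 is the row with the largest difference in morula, 6.49, GJC1 is at -5.79, JUP and PKP2 are at 2.58 and 3.99, and DSC2 reaches 5.50 in blastocysts.

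Of 16 listed adherens junction genes, whose cadherins plakoglobin can also bind, 7 were measured. In morula 1 rose and 2 fell, with a median of -0.01, and in blastocysts the counts were the same, with a median of 0.77. The 1 of 7 is 14.3% and the 2 of 7 are 28.6%, against 17.7% higher and 8.63% lower in morula and 17.8% higher and 8.95% lower in blastocysts over all named genes. The genes that fell were CDH3, a classical cadherin, and CDH2. CDH3 had signals of 818, 740 and 1112 in morula, against 3737, 5455 and 4022 in oocytes, a log2 change of -2.29 (SE 0.35, limma adjusted p = 0.00148). CDH2 changed by -1.58 (SE 0.46, limma adjusted p = 0.0389) and NECTIN2, an adhesion receptor, by 1.78 (SE 0.44, limma adjusted p = 0.0183). Other NECTIN2 probe sets changed by 0.94 and -0.31 in morula and did not pass (limma adjusted p = 0.255 and 0.0541). In blastocysts against oocytes these probe sets changed by 2.38 and -0.36 and both passed (limma adjusted p = 0.0101 and 0.0293). The call of NECTIN2 was lost without oocyte 2, morula 1 or morula 2 (limma adjusted p up to 0.0720), and that of CDH2 without oocyte 2 or 3 or any morula array (up to 0.112). CDH2 also did not pass in morula with a pseudocount of 1 (0.112) or with the compared stages alone (0.0607). With the replicate number as a block, which treats same-numbered arrays as pairs, CDH2 no longer passed in morula (limma adjusted p = 0.0526) or in blastocysts (0.0531), each against oocytes. CDH1, named here as the main cadherin of epithelia, had a log2 change of 2.57 in blastocysts against oocytes and did not pass (limma adjusted p = 0.126).

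Of 17 listed partners and regulators of connexins and desmosomes, 11 were measured, of which 4 rose and none fell in morula, with a median of 0.21. Over all named genes 17.7% rose and 8.63% fell. TEAD4, a transcription factor of the trophectoderm, had signals of 1170, 1537 and 2904 in morula, against 20.8, 44.3 and 37.2 in oocytes, a log2 change of 5.16 (SE 0.57, limma adjusted p = 2.35e-04). GRHL1, a transcription factor known in the mouse for desmosomal cadherin genes, had signals of 984, 1016 and 1839 in morula, against 124, 118 and 6.60 in oocytes, a log2 change of 4.05 (SE 0.79, limma adjusted p = 0.00553). Its second probe set stayed between 5.75 and 30.8 on all arrays. TJP3, a tight junction scaffold, and KLF5, a transcription factor, changed by 2.41 and 2.26 (limma adjusted p = 0.0331 and 0.0397). The call of TJP3 was lost without oocyte 1 or 2 or morula 1 or 2 (limma adjusted p up to 0.120), and that of KLF5 without oocyte 1 or 2 or any morula array (up to 0.126). TJP3 also did not pass after quantile normalization (0.0606), with a pseudocount of 64 (0.053) or with the compared stages alone (0.0691). KLF5 also did not pass with arrays centred on their medians (0.0647) or with the compared stages alone (0.0558). A second probe set of TJP3 fell by 1.53 on the log2 scale (limma adjusted p = 0.00364).

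In blastocysts against oocytes 5 of these 11 genes rose and 1 fell, with a median of 0.13, against 17.8% of all named genes that rose and 8.95% that fell. GRHL1 changed by 5.29, TFAP2A, a trophectoderm transcription factor, by 4.07, TEAD4 by 3.79, TJP3 by 3.06 and KLF5 by 2.49, with limma adjusted p between 0.00130 and 0.0258. CSNK1D, a kinase, was the 1 lower at -1.95 (limma adjusted p = 0.0487, and 0.0527 with the replicate block). Of its other 3 probe sets, 1 was lower at -3.92 (limma adjusted p = 0.00487), 1 was higher at 3.03 (limma adjusted p = 0.00115) and 1 had -0.89 and did not pass (limma adjusted p = 0.488). Leaving out any single oocyte or blastocyst array ended the call of CSNK1D (limma adjusted p up to 0.160). Other settings ended it too, among them a pseudocount of 64 (0.0552) and spike-in class as a block (0.0724). The call of KLF5 was lost without oocyte 1 or 2 or any blastocyst array (up to 0.0817). TFAP2A had signals of 35.9, 28.8 and 11.6 in morula, and it did not pass there (limma adjusted p = 0.879). On the single 8-cell and 16-cell arrays it was 333 and 539.

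Markers of other cell types were measured beside the members. Of 5 measured hypoblast markers 3 rose in morula (60%), and of 3 inner cell mass markers 2 rose (66.7%). Over all named genes 17.7% rose. The hypoblast sum was 17311 to 21347 in morula, against 770 to 1544 in oocytes. That of inner cell mass was 14530 to 20513, against 4292 to 6752. A rise in morula was thus not particular to the trophectoderm list. Stromal fibroblast genes, 8 of 8 measured and none past the test, summed to 401 to 4397 in morula and 445 to 797 in blastocysts, against 271 to 574 in oocytes. The high morula value was that of array 3, and on the 16-cell array the sum was 6001. On morula 3, of the 3 morula arrays, JUP was lowest (169), PKP2 (A1) highest (4303) and GJB5 in between (6869). Without the arrays numbered 3 the 3 rises passed, as given above. Of 4 measured genes of skin epithelium, an epithelium rich in desmosomes, 1 rose in morula, KRT5 (25%, against 17.7% of all named genes). KRT5 had signals of 11974, 11532 and 2984 in morula, against 260, 530 and 538 in oocytes. The summed signal of the 4 was 3218 to 12146 in morula, against 373 to 660 in oocytes. A second KRT5 probe set did not pass. KRT18, a keratin of simple epithelia such as the trophectoderm, had signals of 5008, 2145 and 1565 in morula, against 3.62, 27.4 and 35.5 in oocytes. KRT8, on the same trophectoderm list, was 142, 46.4 and 22.8 in morula and did not pass there (limma adjusted p = 0.473). Of 17 cumulus and granulosa cell genes 1 rose (5.88%) and 3 fell (17.65%) in morula against oocytes, where 17.7% of all named genes rose and 8.63% fell. In blastocysts against oocytes 5 of the 17 rose (29.4%) and 3 fell (17.65%), where 17.8% of all named genes rose and 8.95% fell. Their summed signal was 9842 to 11723 in morula and 12456 to 17654 in blastocysts, against 6569 to 7963 in oocytes. The gene that rose in morula, HAS2, made up most of the morula sum. Its signals were 8972, 8622 and 9257 there, against 1776, 1571 and 1310 in oocytes. Another HAS2 probe set also rose in morula (log2 change 3.83), and a further one fell (-6.20). The median change over the 17 genes was -0.13 in morula and -0.05 in blastocysts, so the higher sums did not reflect a rise across the list. Of 5 blood genes 1 rose in morula, HBB (20%, against 17.7% of all named genes). Another HBB probe set also rose there (limma adjusted p = 0.0262), and further ones did not pass (0.0778 and 0.658). The part of other cells in the members' signals was not tested.

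Probes of Affymetrix controls near the 3′ end and in the middle of a transcript give a measure of how far amplified copies extend. The middle to 3′ ratio of cyclophilin was 0.178 to 0.322 in morula and 0.499 to 0.766 in blastocysts, against 0.0141 to 0.102 in oocytes. That of GAPDH was 0.100 to 0.625 in morula and 0.339 to 0.643 in blastocysts, against 0.0374 to 0.237 in oocytes, and that of eIF4E was 0.0636 to 0.887 in morula and 0.0490 to 0.163 in blastocysts, against 0.0388 to 0.235 in oocytes. The cyclophilin ratio was thus higher at both stages where GJB5, JUP and PKP2 (A1) were higher, the GAPDH ratio overlapped between morula and oocytes, and the eIF4E ratio overlapped at both stages. On the 2-cell array, where JUP had its highest and GJB5 the median of their signals on the 9 earlier arrays, the cyclophilin ratio was 0.562. On the 4-cell array, where JUP was lowest and GJB5 highest of these 9, it was 0.0229. On the 8-cell array, where JUP was 60.8 and GJB5 176, it was 0.0115, the lowest of all arrays. The eIF4E ratio ran the other way between the 2-cell array (0.157) and the 4-cell array (0.272). The part of copy length in the members' signals was not tested.

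Over the 8 stage means, the genes whose course was most like each member were taken from 7114 probe sets whose means span at least 2 on the log2 scale. For GJB5 they were MTA3 (Pearson r 0.97), HPCAL1 (0.96), STEAP3 (0.96), TSPAN2 (0.96) and IQSEC1 (0.95). For JUP they were TTYH2 (0.97), TCP11L1 (0.96), CAP1 (0.95), ADSL (0.94) and DNAJC10 (0.94). For PKP2 (A1) they were PPP1R8 (0.96), STXBP2 (0.96), ARPC2 (0.94), CYB5R3 (0.94) and MYADM (0.93). No junction gene of the lists was among them. Only the 5 highest were kept for each member, so this absence does not show that junction genes took another course. Between the members, r was 0.80 for GJB5 and PKP2, 0.68 for GJB5 and JUP and 0.61 for JUP and PKP2. The like genes were picked as the highest of 7114 probe sets, so lower values between the members cannot show that their courses differ. All these r values describe 8 points that share arrays, 4 of them single, and carry no test.

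**Figure D4:**
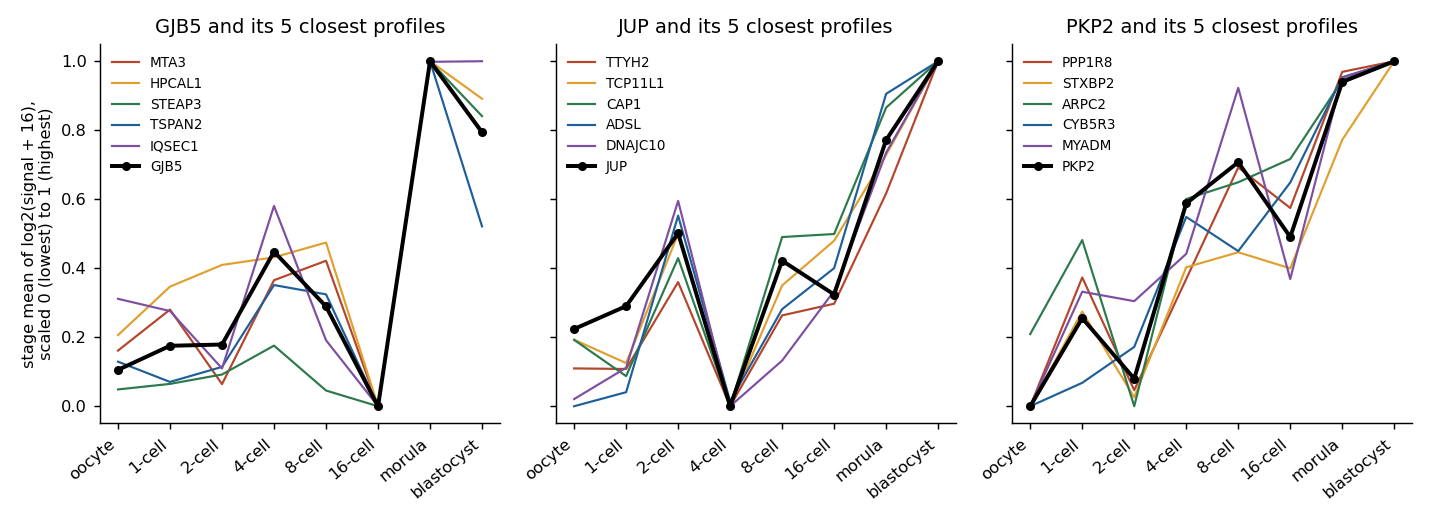
Stage means of log2(signal + 16), each gene scaled from 0 at its lowest to 1 at its highest stage, for GJB5, JUP and PKP2 (A1) (black) and the 5 genes with the highest Pearson r to each over the 8 stages. GJB5 is lowest on the 16-cell array and highest in morula, JUP is lowest on the 4-cell array and highest in blastocysts, and PKP2 is already raised on the 4-cell array, with r between 0.93 and 0.97 for the genes shown.

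The 6 rises of GJB5, JUP and PKP2 (A1), in morula and in blastocyst against oocyte, were refitted under 19 alternatives each. All 102 of these fits that allow a test passed at 0.05, with a highest limma adjusted p of 0.0132, and all 114 values were above 0. The lowest was 1.71, for JUP in morula with a pseudocount of 64.

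**Figure D5:**
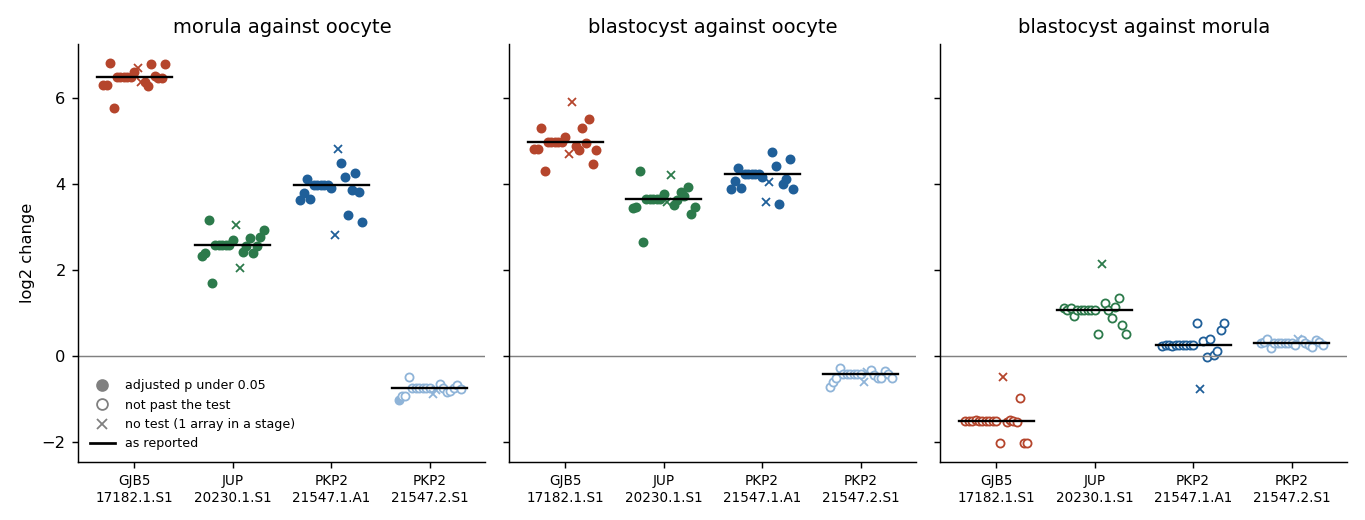
Log2 change of each probe set in 3 comparisons under each alternative setting (points) and as reported (black lines). Filled points passed an adjusted p of 0.05, open ones did not, and crosses have no test because a stage is left with 1 array. GJB5, JUP and PKP2 (A1) stay filled in both comparisons with oocyte, between 1.71 and 6.83 where tested, and no point is filled in blastocyst against morula.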

How the data were processed

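The authors deposited 1 table of intensities on a linear scale for 24128 probe sets on 15 arrays, made from RNA amplified in 3 rounds and labelled with biotin, per the labels' protocols. No source used here states how probes were summarised, how arrays were scaled or whether a floor was set, and 2.56% of values were exactly 1, though none of the members'. Each array's stage and replicate number were read from its title. Genes were named by the platform's annotation, and RefSeq (ARS-UCD2.0) left the symbols of the 4 member probe sets unchanged. Of 24016 probe sets left after 112 controls, 13292 had 1 symbol, 86 several and 10638 none. No genome or sequence was used here.

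A mean per stage was fitted to log2(intensity + 16) of all 15 arrays with limma 3.58.1 in R 4.3.3 (lmFit, eBayes with a trend, two-sided, Benjamini-Hochberg over 24016 probe sets at 0.05). The procedure was tested on simulated data. The number of arrays limits the precision. Alternatives were quantile normalization, centring, pseudocounts of 1 and 64, filters and variance options, compared stages alone, spike-in class, a replicate block and leaving out arrays. Same-numbered arrays of oocyte, morula and blastocyst deviated together (r between 0.106 and 0.306), and those of 1-cell embryos did not (0.183 and -0.115 with oocytes). The labels do not say whether the numbers pair the arrays. The reported fit therefore did not use the numbers, and the replicate block was run only as an alternative. The members and lists were chosen with earlier results of these data known. Named genes were the members, list genes past the test or else the 2 highest of a list, and the 5 genes most like each member; a gene named otherwise is said to be picked after its values were seen.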

Additional observations from a re-analysis of the deposited data

Results flagged for a closer look

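The arrays from the 2-cell to the 16-cell stage enter no test, and on some of them a member's signal lay above its highest oocyte array. GJB5 had a signal of 410 on the 4-cell and 176 on the 8-cell array, against at most 101 in oocytes. JUP had 83.5 on the 2-cell, 60.8 on the 8-cell and 39.7 on the 16-cell array, against at most 34.4 in oocytes. PKP2 (A1) had 1209 on the 4-cell, 1726 on the 8-cell and 904 on the 16-cell array, against at most 422 in oocytes, and was the 1 probe set raised on 3 neighbouring stages. PKP2 (S1) had 127 on the 2-cell array, against at most 105.0 in oocytes. Each is a single array with no replicate check, and the stages with replicates hold too few arrays for a test of an outlying one.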

How the results depend on the processing

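The replicate block, which treats same-numbered arrays as pairs, changed no member's call in the 4 comparisons (GJB5 in morula against oocyte 6.49, limma adjusted p = 1.25e-04). The labels do not say whether the numbers pair the arrays. The block ended the calls of CDH2 (limma adjusted p = 0.0526 in morula and 0.0531 in blastocyst against oocyte) and CSNK1D (0.0527), and brought TFAP2A past the test in blastocyst against morula (0.0395). Of 20 calls of other junction and regulator genes, 12 passed in every tested fit. Values that moved are as follows, and the cause was not tested. In morula against oocyte, quantile normalization gave -1.0213 for PKP2 (S1). Arrays without spike-in signal gave 3.0628 for JUP and 2.8197 for PKP2 (A1), those with it 2.0567 for JUP. Without the arrays numbered 3, 7102 probe sets passed. In blastocyst against morula 40 passed, against 13 and 66 with pseudocounts of 1 and 64, 95 without the arrays numbered 3, 3 to 71 with 1 array left out (3 without morula 2), and 0 with the stages alone or on arrays without spike-in signal. Arrays with spike-in signal gave -0.4835 for GJB5, 2.1606 for JUP and -0.7685 for PKP2 (A1), which ran from -0.019 without morula 2 to 0.61 with 1 array left out. In blastocyst against oocyte they gave 5.9077 for GJB5 and 4.2173 for JUP. In 1-cell embryo against oocyte 65 passed, against 37 (quantile), 35 (centred), 42 (pseudocount of 1), 110 (no variance trend), 0 (stages alone), 38 (replicate block), 419 (without the arrays numbered 3) and 8 to 169 with 1 array left out. There PKP2 (S1) was 0.0088 with a pseudocount of 64, 0.0006 with spike-in class as a block, -0.616 and 0.5126 on arrays without and with spike-in signal, and -0.42 to 0.42 with 1 array left out. On arrays without spike-in signal GJB5 was 1.0806 and PKP2 (A1) -0.762, against 2.4259 on those with it. JUP ran from -0.0308 to 0.66 with 1 array left out. Where 1 array was left in a stage, it was assumed to vary like the others.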

Other observations

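Other channel and junction genes showed high signals on single early arrays. They were picked after their values were seen. PANX1, a pannexin, had signals of 819 and 1279 in 1-cell embryos, against 175, 103 and 3.27 in oocytes, then 2242, 748 and 822 on the 2-cell, 4-cell and 8-cell arrays and 23.1 on the 16-cell array. GJA1, the most widely expressed connexin, had a signal of 3159 on the 16-cell array, against 11.6 on the 8-cell array, and 120, 109 and 391 in morula, and its second probe set was 17.3 on the 16-cell array. On that array CDH2 was 876, VIM, a filament protein of stromal cells, was 1959, and GJB5 was at its lowest. The part of stromal cells on the 16-cell array was not tested.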
